A study of Mus musculus with 16 samples.

Results

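The 7 genes described here are Srebf2 and 6 enzymes of cholesterol synthesis, Hmgcs1, Idi1, Fdps, Sqle, Lss and Cyp51. They were chosen by symbol as genes of the SREBP2 pathway, 7 of the 41079 genes in the count table. All 7 passed the filter on low counts, which kept 16742 genes for testing. None of the 7 is itself an uptake gene, so genes of cholesterol uptake are described from a companion list.

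Poly-A RNA was sequenced from the livers of 16 mice aged 20 to 22 months, with 1 library per mouse. All 16 mice, controls included, carried a floxed Gcgr, the gene of the glucagon receptor. LKO mice also carried Albumin-Cre, whose promoter is active in hepatocytes, so that the deletion was aimed at hepatocytes from development onward, whereas CRE- controls had no Cre. The receptor was not measured here by cell type. The 4 male LKO mice were compared with 4 male CRE- controls and the 4 female LKO mice with 4 female CRE- controls. The question was how liver levels of these genes stand in late life in each sex after a deletion aimed at hepatocytes.

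Cholesterol is built from acetyl-CoA through mevalonate, squalene and lanosterol, and the liver is one of its main sites of synthesis. SREBP2, the product of Srebf2, is held in the membrane of the endoplasmic reticulum with SCAP and INSIG while sterols are plentiful. When sterols fall it is carried to the Golgi and cleaved, and the released fragment enters the nucleus and raises the transcription of nearly all enzymes of the pathway, of genes of cholesterol uptake and of Srebf2 itself.

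The reads assigned to genes numbered 33268424 to 56488920 in a library. Levels are given as CPM, the count of a gene relative to a library total scaled by TMM. Gcgr was at 127 to 193 CPM in male CRE- controls, 117 to 160 CPM in male LKO mice, 162 to 208 CPM in female CRE- controls and 48.8 to 132 CPM in female LKO mice, so the groups overlapped in males and not in females. The log2 fold change of Gcgr, LKO over CRE-, was -0.37 in males (SE 0.24, edgeR adjusted p = 0.671) and -0.93 in females (SE 0.25, edgeR adjusted p = 0.0443). The Gcgr count includes exons outside the deleted segment. The authors reported Gcgr expression as reduced in the liver and in no other tissue they examined. The 7 hepatocyte markers checked, with albumin among them, were each detected in all 4 groups and summed to between 53034 and 131662 CPM, with female LKO mice at 53034 to 91642 CPM and female CRE- controls at 112257 to 131662 CPM. In whole liver, fewer hepatocytes and less RNA of a gene per hepatocyte cannot be told apart.

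Promoter sequence was examined because the members are known as targets of a single factor. A RefSeq promoter table on GRCm38.p6, reaching from 250 bases before to 50 bases after each start, held 5 of the 7 members, Srebf2, Hmgcs1, Idi1, Lss and Cyp51, and not Sqle or Fdps. Both strands were searched. The sterol regulatory element written as TCACNCCAC was found in 1 of the 5, Hmgcs1, and in 1.24% of the 32851 promoters of the table. The same motif without its last base, TCACNCCA, was found in 2 of the 5, Hmgcs1 and Srebf2, and in 4.36% of all promoters; this shorter form was added after the first result was known, and every match to the longer form is also a match to it. CCAAT, the motif of NF-Y, was in 5 of 5 against 37.4% of all promoters, and GGGCGG, the motif of Sp1, was in 5 of 5 against 35.7%. The E-box TCACGTGA was in 0 of 5 and in 0.974% of all promoters. The 2 promoters with the sterol motif are shown upstream of the gene as matched exactly to GRCm39, Hmgcs1 at chr13:120151637-120151886 and Srebf2 at chr15:82031220-82031381, both on the plus strand and 5′ to 3′, with capitals marking TCACNCCA and CCAAT, the latter read as ATTGG on this strand:
Hmgcs1: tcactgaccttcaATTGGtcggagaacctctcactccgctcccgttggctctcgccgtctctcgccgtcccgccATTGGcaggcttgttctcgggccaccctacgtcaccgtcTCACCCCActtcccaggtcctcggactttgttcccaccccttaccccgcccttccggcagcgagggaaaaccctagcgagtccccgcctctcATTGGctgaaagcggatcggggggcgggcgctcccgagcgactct
Srebf2: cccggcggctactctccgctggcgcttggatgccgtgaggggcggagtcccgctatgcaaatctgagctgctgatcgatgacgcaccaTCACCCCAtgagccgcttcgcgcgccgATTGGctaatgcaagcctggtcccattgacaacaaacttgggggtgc
A match is a run of letters and not evidence of binding. Relative to the start used by the table, the sterol motif of Hmgcs1 began at -137, with ATTGG at -237, -176, -45 and 11. In Srebf2 it began at -162, with ATTGG at -135.

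With edgeR's fit of the 4 group means, none of the 7 members passed an adjusted p of 0.05 between LKO and CRE- livers in either sex; a fit with the replicate number as a block, which called Fdps in females, is given with the alternatives. In males edgeR's quasi-likelihood test called 0 of 7 members, against 0.454% of all genes tested, and 2 of 7 had an unadjusted p under 0.05, Hmgcs1 and Lss, both lower in LKO mice, where 4.74% of all genes did so in that direction. In females edgeR called 0 of 7, against 4.24% of all genes, and 0 of 7 had an unadjusted p under 0.05, against 21.4%. DESeq2 and limma-voom also called 0 of 7 in each sex, where they called 2.03% and 0.884% of all genes in males and 11.1% and 11.8% in females. The log2 fold change was below 0 for 6 of 7 members in males, with a median of -0.31, and for 5 of 7 in females, with a median of -0.08. Over all genes tested the share below 0 was 50.9% in males and 46.9% in females, and the medians were -0.01 and 0.04.

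**Figure D1:**
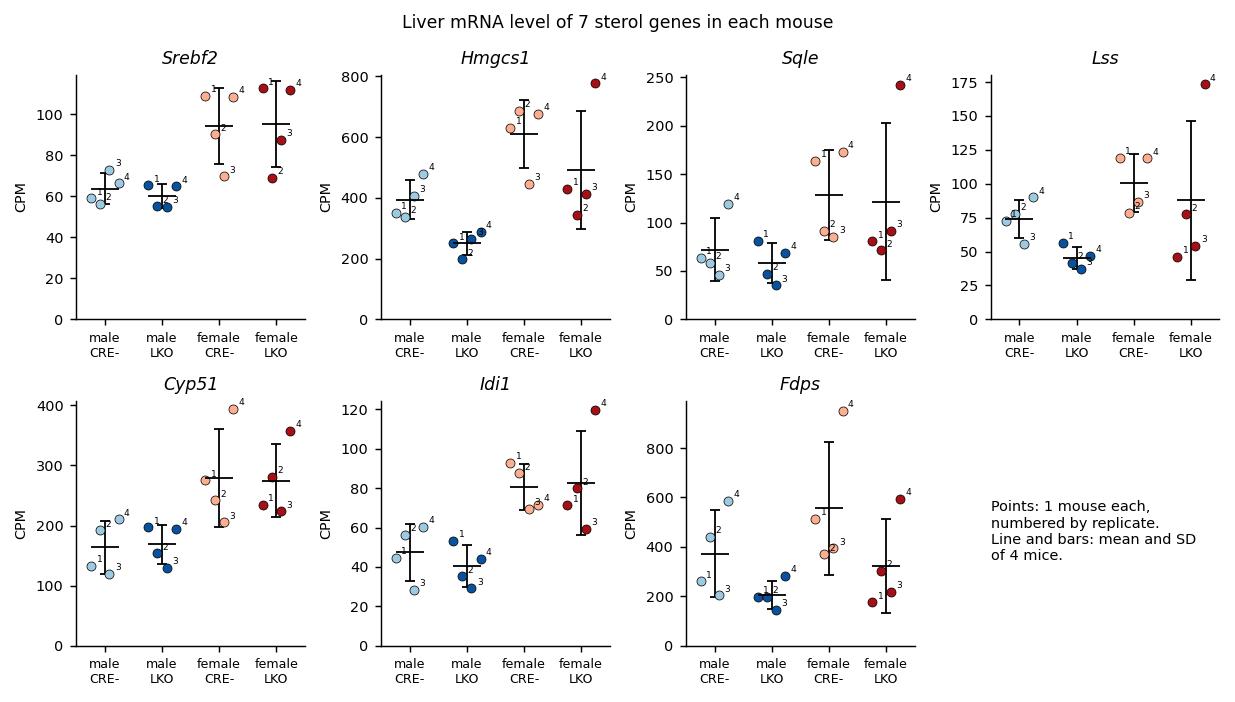
Level of each of the 7 genes in each mouse, in CPM on linear axes that start at 0, for the 4 groups of 4 mice. Points are mice, numbered by replicate, and the line and bars are the mean and SD; female mice sit above male mice in most panels, Hmgcs1 separates male LKO from male CRE- mice, and female LKO replicate 4 is the highest of its group in every panel but Srebf2.

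The regulator itself showed no difference in LKO livers that 4 mice a group could resolve. Srebf2 lies on chromosome 15 of GRCm39 from 82031455 to 82089580 on the plus strand. It was at 59.1, 56.3, 73.0 and 66.5 CPM in the 4 male CRE- controls and at 65.5, 55.1, 55.0 and 64.9 CPM in the 4 male LKO mice. In females it was at 109, 90.3, 69.8 and 109 CPM in controls and at 113, 69.0, 87.7 and 112 CPM in LKO mice. LKO and control mice were interleaved in both sexes. LKO over CRE- gave a log2 fold change of -0.08 in males (95% confidence interval -0.48 to 0.31, edgeR adjusted p = 0.916) and 0.01 in females (-0.38 to 0.40, edgeR adjusted p = 0.981). Srebf2 also varied least among the 7, with an SD within groups of 0.25 on the log2 scale, where the median of all genes tested was 0.44.

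Hmgcs1, the cytosolic HMG-CoA synthase that commits acetyl-CoA units to the mevalonate pathway, was the member whose LKO and control mice separated fully in males. It lies on chromosome 13 from 120151887 to 120169796 on the plus strand. Male CRE- controls were at 350, 339, 406 and 480 CPM and male LKO mice at 250, 198, 265 and 288 CPM, so that every male LKO mouse was below every male control. It was the 1 member of 7 whose male groups did not overlap, and 2.92% of all genes did so in the same direction. The male log2 fold change was -0.65 (SE 0.24, interval -1.17 to -0.14), a level 0.635 times that of controls, with an unadjusted p of 0.0155 and an adjusted p of 0.358 from edgeR. Without each male mouse in turn it was between -0.74 and -0.55, with an edgeR adjusted p of 0.314 or more.

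Female CRE- controls had Hmgcs1 at 631, 686, 446 and 677 CPM and female LKO mice at 430, 345, 413 and 777 CPM. In females 3 of the 4 LKO mice were below every control, and the fourth, replicate 4, was above all of them. The female log2 fold change was -0.31 (SE 0.24, interval -0.82 to 0.20, edgeR adjusted p = 0.499), and -0.62 without that mouse (edgeR adjusted p = 0.107).

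Idi1 encodes the isomerase that turns isopentenyl diphosphate into dimethylallyl diphosphate, and it did not separate the genotypes in either sex. It lies on chromosome 13 from 8935642 to 8942432 on the plus strand, beside its paralog Idi2 and with annotated pseudogenes elsewhere, so its count is uncertain to the extent that reads match more than 1 of them. Its level was 44.6, 56.3, 28.3 and 60.3 CPM in male CRE- controls and 53.3, 35.3, 29.1 and 44.1 CPM in male LKO mice. Its level was 93.0, 87.5, 69.4 and 71.5 CPM in female CRE- controls and 71.3, 80.0, 59.4 and 120 CPM in female LKO mice. Control and LKO ranges overlapped in both sexes. For males the log2 fold change of Idi1 was -0.23 (SE 0.26, edgeR adjusted p = 0.813), and for females 0.04 (SE 0.26, edgeR adjusted p = 0.955).

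Fdps, the synthase of farnesyl diphosphate, from which sterols and isoprenoids branch, had the largest log2 fold change of the 7 in both sexes and also the widest spread between mice. It lies on chromosome 3 from 89000895 to 89009274 on the minus strand. Male CRE- controls were at 261, 441, 203 and 586 CPM and male LKO mice at 199, 197, 146 and 284 CPM. Female CRE- controls were at 512, 370, 395 and 950 CPM and female LKO mice at 175, 304, 219 and 595 CPM. In each sex 3 of 4 LKO mice were below every control, and in each sex the highest LKO mouse was replicate 4, as was the highest control. The log2 fold change was -0.85 in males (SE 0.41, interval -1.73 to 0.02, edgeR adjusted p = 0.542) and -0.79 in females (SE 0.41, interval -1.66 to 0.09, edgeR adjusted p = 0.289). The SD of Fdps within groups was 0.64 on the log2 scale, larger than that of 68.4% of all genes tested. With 1 male mouse left out at a time its male log2 fold change ran from -1.07 to -0.55, the latter without male CRE- replicate 4. In females it ran from -1.26 without LKO replicate 4 to -0.37 without CRE- replicate 4.

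Sqle and Lss act next to each other, as squalene epoxidase, which adds the oxygen to squalene, and lanosterol synthase, which closes the rings. Sqle lies on chromosome 15 from 59186941 to 59203042 and Lss on chromosome 10 from 76367303 to 76392973, both on the plus strand. Sqle was at 63.6, 58.5, 45.7 and 119 CPM in male CRE- controls and at 81.3, 46.8, 35.2 and 69.0 CPM in male LKO mice. It was at 164, 91.6, 85.1 and 173 CPM in female CRE- controls and at 80.7, 71.5, 91.7 and 243 CPM in female LKO mice. Control and LKO ranges overlapped in both sexes, and the highest female value belonged to LKO replicate 4. The log2 fold change of Sqle was -0.31 in males (SE 0.41, edgeR adjusted p = 0.843) and -0.08 in females (SE 0.41, edgeR adjusted p = 0.941). Without male CRE- replicate 4 the male value was 0.05, and without female LKO replicate 4 the female value was -0.66 (edgeR adjusted p = 0.322), so the male direction turned with 1 mouse. Without female CRE- replicate 4 the female value was 0.12.

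Lss was at 72.7, 78.0, 55.8 and 89.9 CPM in male CRE- controls and at 56.4, 41.8, 37.5 and 46.7 CPM in male LKO mice. Only male LKO replicate 1 reached the lowest male control. Its male log2 fold change was -0.70 (SE 0.33, interval -1.39 to -0.01), with an unadjusted p of 0.0472 and an edgeR adjusted p of 0.515. In females Lss was at 119, 78.5, 86.5 and 119 CPM in controls and at 46.1, 77.4, 54.1 and 173 CPM in LKO mice. Here 3 LKO mice were below every control and replicate 4 was above every control, as for Hmgcs1. The female log2 fold change was -0.20 (SE 0.33, edgeR adjusted p = 0.780), -0.77 without LKO replicate 4 (edgeR adjusted p = 0.0815) and 0.03 without LKO replicate 1.

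Cyp51 encodes the demethylase that takes the first step from lanosterol toward cholesterol. It lies on chromosome 5 from 4130674 to 4154697 on the minus strand. It was at 133, 192, 119 and 210 CPM in male CRE- controls and at 197, 154, 130 and 194 CPM in male LKO mice. It was at 275, 242, 206 and 394 CPM in female CRE- controls and at 235, 281, 224 and 357 CPM in female LKO mice. The LKO ranges fell inside the control ranges in both sexes. Its log2 fold change was 0.04 in males (interval -0.47 to 0.56, edgeR adjusted p = 0.972) and -0.03 in females (-0.54 to 0.49, edgeR adjusted p = 0.970).

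The LKO effect on the members was not shown to differ between the sexes. The interaction, the female minus the male log2 fold change, had 0 of 7 members with an adjusted p under 0.05 or an unadjusted p under 0.05 in edgeR, where all genes gave 0% and 16%, and DESeq2 and limma-voom also called 0 of 7, against 2.22% and 0.173%. Its largest value was 0.50 for Lss (SE 0.46, interval -0.47 to 1.47, edgeR adjusted p = 0.586), followed by 0.34 for Hmgcs1 (SE 0.34, edgeR adjusted p = 0.619). Without female LKO replicate 4 these were -0.05 and 0.05.

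A contrast of the LKO effect averaged over both sexes was added after the data were seen, and uses the same 8 LKO and 8 control mice. In the fit of the 4 group means it also called 0 of 7 members, against 2.86% of all genes, or 478 genes, and 2 of 7 had an unadjusted p under 0.05 in the lower direction, against 7.41%. These were Hmgcs1, with a log2 fold change of -0.48 (SE 0.17, edgeR adjusted p = 0.158), and Fdps, with -0.82 (SE 0.29, edgeR adjusted p = 0.160). Lss followed with -0.45 (SE 0.23, edgeR adjusted p = 0.362). DESeq2 and limma-voom called 0 of 7, against 6.2% and 5.12%. Without female LKO replicate 4 the contrast called 3 of 7, Hmgcs1 at -0.64 (edgeR adjusted p = 0.0228), Lss at -0.74 (edgeR adjusted p = 0.0197) and Fdps at -1.06 (edgeR adjusted p = 0.0437), while 472 of all genes were called. With the replicate number as a block, described with the alternatives, Fdps was called with all 16 mice.

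Female livers had more of these transcripts than male livers by group mean. All 7 members had higher means in female than in male CRE- controls, where 49.4% of all genes had a log2 fold change above 0. The log2 fold change of female over male controls was 0.57 for Srebf2 (edgeR adjusted p = 0.202), 0.63 for Hmgcs1 (0.290), 0.76 for Idi1 (0.225), 0.58 for Fdps (0.562), 0.84 for Sqle (0.413), 0.44 for Lss (0.571) and 0.77 for Cyp51 (0.192). edgeR called 0 of 7, in the fit of the 4 group means, against 0.92% of all genes, and 4 of 7 had an unadjusted p under 0.05 in the higher direction, Srebf2, Hmgcs1, Idi1 and Cyp51, against 6.3% of all genes. DESeq2 and limma-voom called 0 of 7, against 3.11% and 1.97%. With the replicate block, described with the alternatives, edgeR called Cyp51 (adjusted p = 0.0486), where it called 161 of all genes. Idi1 was the 1 member whose control groups did not overlap, with the lowest female at 69.4 CPM and the highest male at 60.3 CPM, and 4.37% of all genes did so in that direction. Hepatocyte markers summed to 70894 to 111451 CPM in male controls and 112257 to 131662 CPM in female controls. All 6 tested neutrophil markers were lower in female controls, 2 with an unadjusted p under 0.05, as 1067 of 16742 genes were. Of 5 cholangiocyte markers edgeR called 1 higher, as it did 69 of all genes. The part of these markers in the members' values was not tested.

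Female LKO mice were likewise above male LKO mice for all 7 members, in a contrast added after the data were seen. The log2 fold change was 0.66 for Srebf2 (edgeR adjusted p = 0.0898), 0.97 for Hmgcs1 (0.0651), 1.03 for Idi1 (0.0663), 0.65 for Fdps (0.445), 1.07 for Sqle (0.184), 0.94 for Lss (0.148) and 0.70 for Cyp51 (0.151). edgeR called 0 of 7 in the fit of the 4 group means, against 1.13% of all genes, or 189 genes, and 5 of 7 with the replicate block, described with the alternatives. In the first fit 6 of 7 had an unadjusted p under 0.05, all but Fdps, against 11.5% in the higher direction. DESeq2 called 3 of 7, Srebf2 (adjusted p = 0.0184), Hmgcs1 (0.00476) and Idi1 (0.00594), and limma-voom called 2 of 7, Hmgcs1 and Idi1; they called 6.73% and 5.69% of all genes. The ranges of 4 members did not overlap, Srebf2, Hmgcs1, Idi1 and Cyp51, where 3.95% of all genes did so in that direction; for Hmgcs1 the lowest female LKO mouse was at 345 CPM and the highest male LKO mouse at 288 CPM. Leaving out female LKO replicate 4 lowered every value, to 0.67 for Hmgcs1, 0.80 for Idi1, 0.49 for Sqle, 0.38 for Lss and 0.18 for Fdps, and left 0 of 7 and 80 of all genes called by edgeR. Without female LKO replicate 2 edgeR called 3 of 7, Srebf2 at 0.79 (adjusted p = 0.0309), Hmgcs1 at 1.11 (0.0281) and Idi1 at 1.05 (0.0499), and the count over all genes rose to 714. Idi1 was also called by edgeR without female LKO replicate 3 and without male LKO replicate 1, in the latter with an adjusted p of 0.0356, where 204 and 409 of all genes were called. Cell markers moved with this contrast as well. An unadjusted p under 0.05 was reached by 6 of 6 tested neutrophil, 6 of 6 proliferation, 6 of 10 macrophage, 5 of 7 endothelial and 4 of 7 stellate cell and fibroblast markers. All of these were higher in female LKO mice, against 11.5% of all genes, and edgeR called 2, 1, 0, 1 and 0 of them. Their part in the members' values was not tested. The comparison of control mice and that of LKO mice share no mouse.

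Ordered by level per kilobase of annotated exon, as RPKM, Fdps was the most abundant member and Lss the least, in male and female CRE- controls alike. In male controls the order was Fdps at 255 ± 119 RPKM (SD, n = 4), Hmgcs1 at 93.4 ± 15.3, Cyp51 at 37.6 ± 10.2, Sqle at 26.1 ± 11.8, Idi1 at 16.5 ± 5.0, Srebf2 at 11.5 ± 1.36 and Lss at 10.7 ± 2.04. From Cyp51 downward the means of neighbors in this order differed by less than the sum of their SDs, while Fdps and Hmgcs1 each stood clear of the gene below by more than that sum. In female controls the same order held, with Fdps at 381 ± 185 RPKM, Hmgcs1 at 145 ± 26.6 and Lss at 14.5 ± 3.07 (SD, n = 4). In LKO mice Fdps was at 141 ± 39.1 RPKM in males and 221 ± 129 RPKM in females, and Lss at 6.56 ± 1.17 and 12.6 ± 8.42 RPKM (SD, n = 4), again the highest and the lowest of the 7. The order depends on the exon length given for each gene, 6956 bases for Lss and 2867 for Idi1. By mean CPM in male controls Lss, at 74.1, was above Sqle at 71.8, Srebf2 at 63.7 and Idi1 at 47.4.

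The members moved together from mouse to mouse within a group. After the mean of each group was taken away, the Pearson correlation of log2 CPM over the 16 mice had a median of 0.72 across the 21 pairs of members, from 0.19 for Srebf2 with Idi1 to 0.93 for Cyp51 with Fdps. These are descriptions with no test, and the 7 values of a mouse come from 1 library. The mean correlation of a member with the other 6 was lowest for Srebf2, at 0.39, and highest for Sqle, at 0.75. Hmgcs1 was the enzyme closest to Srebf2, at 0.72. In male mice alone the median over pairs was 0.63, in female mice alone 0.70, in CRE- mice alone 0.56 and in LKO mice alone 0.80, each over 8 mice.

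**Figure D2:**
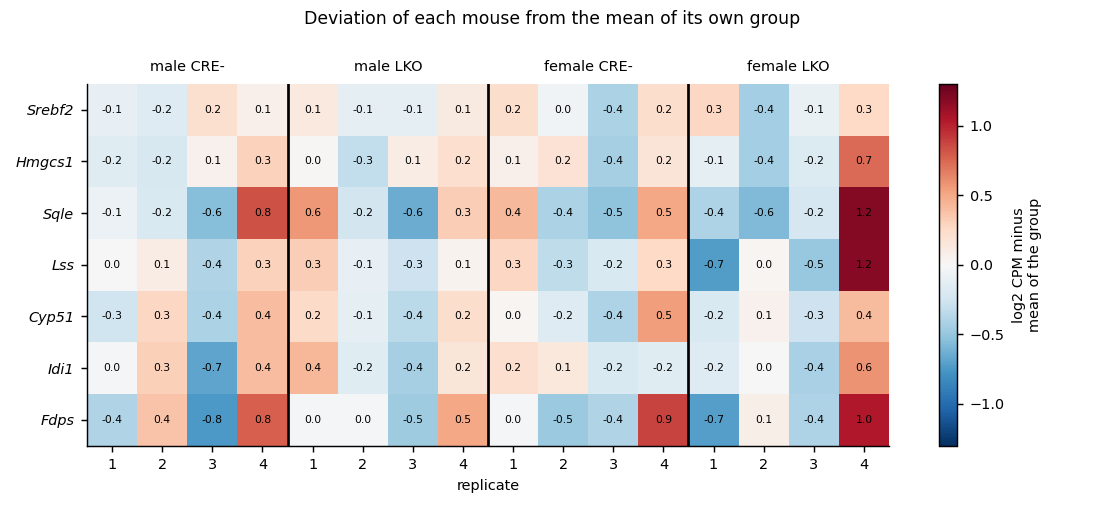
Deviation of each of the 16 mice from the mean of its own group for each of the 7 genes, in log2 CPM, with blue below and red above the group mean. Male CRE- replicate 4 and female LKO replicate 4 show the largest mean deviations above 0, at 0.44 and 0.77; both are above the group mean for all 7 genes, as is male LKO replicate 4.

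Female LKO replicate 4 carried the largest deviation. It was above its group mean for 7 of 7 members, the highest of its group for 6 of 7, and 0.77 above on average on the log2 scale. Next came male CRE- replicate 4, above its group mean for 7 of 7 and the highest for 6 of 7, with an average of 0.44. Without female LKO replicate 4 the median correlation over the 21 pairs was 0.55, and without any other single mouse it was between 0.66 and 0.74. These 2 mice also had the highest summed level of the 7 neutrophil markers in the series, at 506 CPM in female LKO replicate 4 and 134 CPM in male CRE- replicate 4, against 12.5 to 112 CPM in the other 14. The other mice numbered 4 were above their group means as well, with average deviations of 0.23 in male LKO and 0.35 in female CRE- mice, and had neutrophil sums of 12.5 and 16.8 CPM. Replicate 3 was below its group mean on average in all 4 groups. Macrophage markers of female LKO replicate 4 and male CRE- replicate 4 summed to 1312 and 1223 CPM, where the highest value, 3034 CPM, was in female LKO replicate 1, whose mean deviation for the members was -0.29. Female LKO replicate 4 was also the library with the fewest reads. The part of these markers, of depth and of the replicate number in the members' levels was not tested.

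The genes whose mouse-to-mouse pattern was most like that of the 7 members were named by a fixed rule, the highest mean correlation with them over the 16 mice. They were Ddx39a at 0.77, Mvd at 0.75, S100a11 at 0.75, Npdc1 at 0.74, Akr1b8 at 0.74, Mvk at 0.73, Aldoc at 0.73, Pbdc1 at 0.72, Plscr1 at 0.72 and Eif6 at 0.72. Mvd and Mvk are enzymes of the mevalonate pathway, diphosphomevalonate decarboxylase and mevalonate kinase, and the other 8 are in none of the sterol lists. The median of this mean correlation over the other 16735 genes was -0.01. This list was not stable: without female LKO replicate 4, 3 of the 10 stayed among the 10 most alike, and of the 10 most alike in female mice alone 4 were shared, in CRE- mice alone 1, in LKO mice alone 1 and in male mice alone 0.

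The pathway was then read from a list of 22 genes of cholesterol synthesis, Ggps1 and Erg28 among them, which includes 6 of the members. In males 18 of 22 had a log2 fold change below 0, against 50.9% of all genes, 0 were called by edgeR, against 0.454%, and the median was -0.29. Of the 22, 4 had an unadjusted p under 0.05 in males, all lower, against 4.74%. In females 19 of 22 were below 0, against 46.9% of all genes, 2 were called by edgeR, both lower, against 4.24% in either direction, and the median was -0.27. The same 22 genes in female against male CRE- controls had 21 above 0, against 49.4% of all genes, 0 called by edgeR, against 0.92%, and a median of 0.64. Of the 22, 8 had an unadjusted p under 0.05 there, all higher, against 6.3%. Under alternative settings Tm7sf2 was called there in 3 of 6, and Mvd and the member Cyp51 each in 1 of 6. None of them was called in the 8 fits without 1 mouse.

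**Figure D3:**
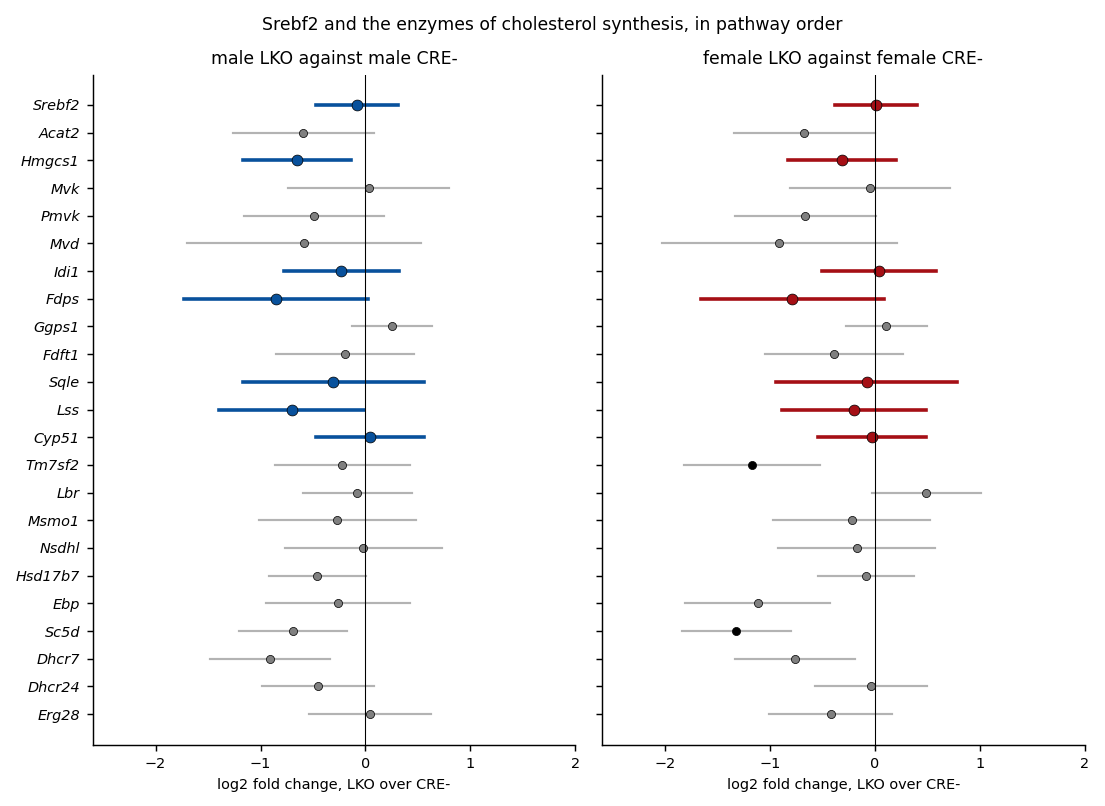
Log2 fold change of LKO over CRE- for Srebf2 and the 22 genes of the cholesterol synthesis list in pathway order, males on the left and females on the right, with 95% confidence intervals as bars. Colored points are the 7 members, gray points other genes of the list and black points those with an edgeR adjusted p under 0.05. In females the 2 black points, Tm7sf2 and Sc5d, lie after the members in the pathway.

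The 2 enzymes that passed the test in females act after lanosterol. Sc5d, the sterol desaturase near the end of the pathway, fell in females from 881 ± 96.5 to 353 ± 123 CPM (mean ± SD of 4 mice), a log2 difference of -1.32 (SE 0.25, edgeR adjusted p = 0.0136), and no female LKO mouse overlapped a control. Tm7sf2, a sterol reductase, fell in females from 238 ± 78.0 to 106 ± 39.8 CPM (mean ± SD of 4 mice), a log2 difference of -1.17 (SE 0.31, edgeR adjusted p = 0.0433). In males Sc5d had a log2 fold change of -0.69 (edgeR adjusted p = 0.329) and Dhcr7, the last reductase of the pathway, -0.91 (edgeR adjusted p = 0.195), with no overlap of the groups for either. Dhcr7 was at -0.76 in females (edgeR adjusted p = 0.109), where the groups overlapped. Tm7sf2 was at -0.22 in males (edgeR adjusted p = 0.848), where the groups overlapped. The interaction was -0.95 for Tm7sf2 (edgeR adjusted p = 0.301) and -0.63 for Sc5d (edgeR adjusted p = 0.359). The call of Sc5d held with each female mouse left out in turn, up to an edgeR adjusted p of 0.0481, and was lost at 0.0721 when females were fitted alone. The call of Tm7sf2 held in 3 of 8 fits without 1 mouse, with an edgeR adjusted p of up to 0.123, and in 5 of 7 alternative settings. DESeq2 called these 2 in females and also Ebp, a sterol isomerase, at -1.12 (DESeq2 adjusted p = 0.0151, edgeR adjusted p = 0.0623), which makes 3 of 22, near the 11.1% of all genes that it called. In the contrast averaged over both sexes, added after the data were seen, edgeR called 2 of 22, against 2.86% of all genes. They were Sc5d at -1.01 (SE 0.17, edgeR adjusted p = 0.00423) and Dhcr7 at -0.84 (SE 0.19, edgeR adjusted p = 0.0243).

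Of the genes of the mevalonate and squalene steps that are not members, the lowest p in both sexes belonged to Acat2, which joins acetyl-CoA units, and to Pmvk, phosphomevalonate kinase. Acat2 had a log2 fold change of -0.59 in males (edgeR adjusted p = 0.582) and -0.67 in females (edgeR adjusted p = 0.235). Pmvk had -0.49 in males (edgeR adjusted p = 0.663) and -0.66 in females (edgeR adjusted p = 0.239). Fdft1, squalene synthase, had -0.20 in males (edgeR adjusted p = 0.868) and -0.39 in females (edgeR adjusted p = 0.518). None of these passed the test.

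The genes that process SREBP proteins and sense sterols, 11 with Srebf2 among them, included 2 that edgeR called, both in females, where it called 4.24% of all genes, and 0 in males. Insig1, which holds SCAP and SREBP in the endoplasmic reticulum and is itself a target of SREBP, fell in females from 604 ± 106 to 258 ± 120 CPM (mean ± SD of 4 mice), a log2 difference of -1.22 (SE 0.25, edgeR adjusted p = 0.0176). Srebf1, the gene of SREBP1, which drives fatty acid synthesis, fell in females from 515 ± 118 to 196 ± 46.2 CPM (mean ± SD of 4 mice), a log2 difference of -1.39 (SE 0.35, edgeR adjusted p = 0.0369). In males Insig1 had -0.85 (edgeR adjusted p = 0.174, DESeq2 adjusted p = 0.0339) and Srebf1 -1.21 (edgeR adjusted p = 0.174, DESeq2 adjusted p = 0.0256), so DESeq2 called both in males too. The male groups of Insig1 did not overlap, as for 2.92% of all genes in that direction, and those of Srebf1 did overlap. Rnf145, a ubiquitin ligase of the same list, went the other way in females, at 0.75 with no overlap of the groups (edgeR adjusted p = 0.0540, DESeq2 adjusted p = 0.0125). Neither interaction passed the test, at -0.37 for Insig1 (edgeR adjusted p = 0.590) and -0.18 for Srebf1 (edgeR adjusted p = 0.878). The female call of Srebf1 held in 1 of the 8 fits without 1 mouse, with an edgeR adjusted p of up to 0.106, and that of Insig1 in 6 of 8, up to 0.0634, and Insig1 was not called when females were fitted alone (edgeR adjusted p = 0.0873). Beside these values Srebf2 had log2 fold changes of -0.08 and 0.01.

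Of the 11 genes of uptake and intracellular transport on the list, 10 were tested and 0 were called in males and 0 in females by edgeR, with 3 and 2 at an unadjusted p under 0.05, where 9.53% and 21.4% of all genes were. The female count is near that share. Scarb1, the HDL receptor, was at a log2 fold change of 0.48 for male LKO mice (SE 0.17, edgeR adjusted p = 0.329) and 0.44 for female LKO mice (SE 0.17, edgeR adjusted p = 0.140). In the contrast averaged over both sexes, added after the data were seen, Scarb1 was the 1 gene called of these 10, at 0.46 (SE 0.12, edgeR adjusted p = 0.0488, DESeq2 adjusted p = 0.0063), where edgeR called 2.86% and DESeq2 6.2% of all genes. Lrp1, an endocytic receptor that clears lipoprotein remnants, came next in males at -0.76 (SE 0.30, edgeR adjusted p = 0.407), and Mylip, a ubiquitin ligase that acts on lipoprotein receptors, in females at 0.56 (SE 0.25, edgeR adjusted p = 0.215).

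Of the 9 genes for LXR, sterol efflux and esterification, edgeR called 1, Soat1 in females, where it called 4.24% of all genes. Soat1, an enzyme that esterifies cholesterol and is abundant in macrophages, rose in females from 6.16 ± 1.94 to 20.3 ± 19.2 CPM (mean ± SD of 4 mice), a log2 difference of 1.72 (SE 0.47, edgeR adjusted p = 0.0493), and of 0.83 without female LKO replicate 1 (edgeR adjusted p = 0.202). The female groups overlapped, and the call held in 2 of 8 fits without 1 mouse and in 5 of 7 other alternatives. The 10 macrophage markers were all above 0 in females, with 2 called higher, and summed to 503 to 872 CPM in female controls and 911 to 3034 CPM in female LKO mice, with that replicate at the top. Their part in the value of Soat1 was not tested. Soat2, the hepatocyte enzyme, had a log2 fold change of 0.74 in males (edgeR adjusted p = 0.303).

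**Figure D4:**
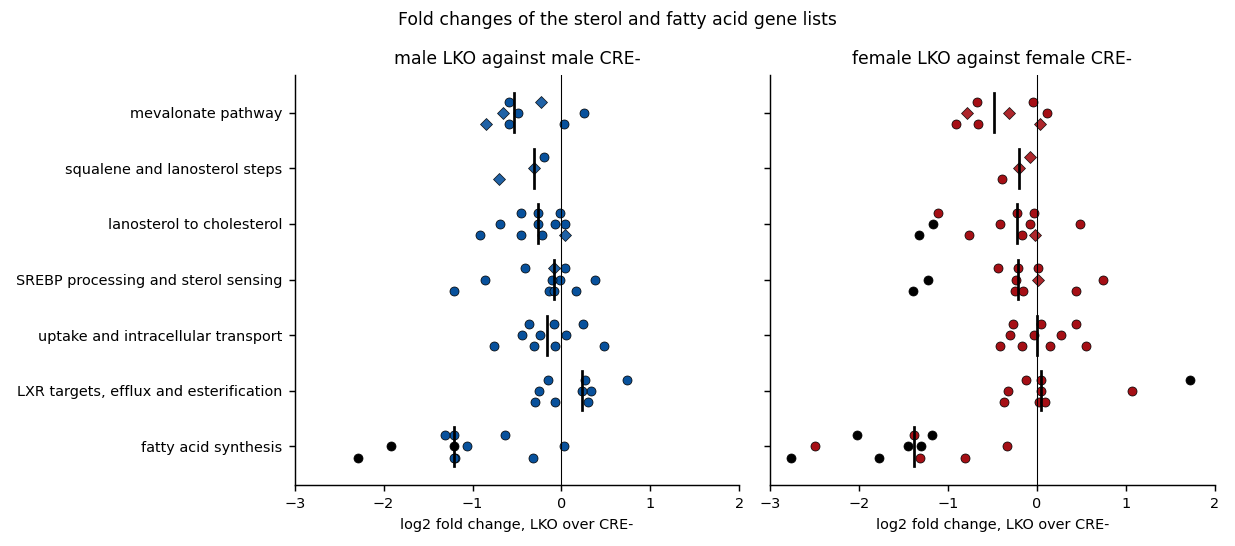
Log2 fold change of LKO over CRE- for every gene tested in 7 lists of sterol and fatty acid genes, males on the left and females on the right. Diamonds are the 7 members, black points have an edgeR adjusted p under 0.05 and vertical bars are list medians; the fatty acid list lies farthest below 0 in both sexes.

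The 11 genes listed under fatty acid synthesis had a median farther below 0 than that of the members in both sexes. In males edgeR called 3 of 11, all lower, against 0.454% of all genes, and the median log2 fold change was -1.21, beside -0.31 for the 7 members. In females edgeR called 6 of 11, all lower, against 4.24%, and the median was -1.39, beside -0.08 for the members. In the contrast averaged over both sexes, added after the data were seen, edgeR called 7 of 11, all lower, against 2.86%. The median there was -1.32, beside -0.19 for the members. The difference between the lists was not tested, and some genes of the list moved less than Fdps, such as Mlxipl at 0.03 in males and Acaca at -0.33 in females. Scd1, the stearoyl-CoA desaturase, fell by 2.29 on the log2 scale in males (SE 0.32, edgeR adjusted p = 0.00290) and by 2.03 in females (SE 0.32, edgeR adjusted p = 0.00550). Acly, which supplies cytosolic acetyl-CoA to both fatty acid and sterol synthesis, fell by 1.21 in males (SE 0.24, edgeR adjusted p = 0.0414) and by 1.18 in females (SE 0.24, edgeR adjusted p = 0.0200). Acacb fell in males by 1.92 and in females by 1.31, and in females Acss2, Fasn and Pnpla3 also fell, with log2 fold changes of -1.78, -1.45 and -2.77. In males these 3 had log2 fold changes of -1.21, -1.19 and -1.31 with no overlap of the groups, not called by edgeR (adjusted p = 0.108, 0.127 and 0.177) and called by DESeq2 (adjusted p = 0.00762, 0.0108 and 0.0337). The male call of Acly held in 2 of 8 fits without 1 mouse. The female calls of Acly, Acacb and Fasn each held in 5 of 8, with edgeR adjusted p of up to 0.0626, 0.0624 and 0.0680, and were lost without CRE- replicate 3, CRE- replicate 4 or LKO replicate 1. When females were fitted alone Acss2 and Fasn were not called (edgeR adjusted p = 0.0521 and 0.0519).

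Markers of other cells moved with the female comparison and stand beside all of its values. In female LKO mice 5 of 6 proliferation markers, 2 of 10 macrophage markers, 2 of 6 tested neutrophil markers and 2 of 7 endothelial markers were called higher, against 2.09% of all genes, while 0 of 7 hepatocyte markers were called and all 7 were below 0, with a median of -0.76. In males 0 markers of any list were called by edgeR, and 5 of 6 tested neutrophil markers had an unadjusted p under 0.05, all lower in LKO mice, against 4.74% of all genes. The hepatocyte markers were below 0 for 6 of 7 in males, with a median of -0.33 and 2 at an unadjusted p under 0.05, beside the median of -0.31 of the members. The neutrophil markers summed to 16.8 to 36.0 CPM in female controls and 44.3 to 506 CPM in female LKO mice. The part of these markers in the members' values was not tested in either sex.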

How the data were processed

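The authors prepared poly-A libraries from frozen liver of single mice, sequenced paired ends, aligned the reads with STAR 2.7.1a to GRCm39 and counted them by gene and strand with featureCounts of Subread 2.0.6. They deposited raw counts of 41079 genes, between 33268424 and 56488920 per mouse. Most low counts are even, so that both mates of a fragment appear to have been counted, and reads are then not independent molecules. STAR was set to keep reads that match several places, and the stated options of featureCounts name none for counting such reads, which the tool leaves out by default.

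The counts were fitted with edgeR 4.0.16 in R 4.3.3 (filterByExpr with a minimum count of 10, TMM scaling, quasi-likelihood test), in 1 model of 4 group means over all 16 libraries, with Benjamini-Hochberg adjustment over the 16742 genes tested and a threshold of 0.05. Log2 CPM used a prior count of 2. DESeq2 1.42.0, limma 3.58.1 with voom and quality weights, other scalings and filters, a replicate block and leaving out each mouse were alternatives, and the code was tested on simulated data. RPKM is CPM per kilobase of exon. The named genes were all 7 members and, from each sterol list, genes past the threshold or, where fewer than 3 passed, the 2 with the smallest p; the genes most like the members were the 10 with the highest mean correlation. The members and lists were chosen with earlier results of these data known. Some genes of these pathways are not reported here.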

Additional observations from a re-analysis of the deposited data

Results flagged for a closer look

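Sqle in female LKO mice stood out because 1 mouse was far from the other 3. Replicate 4 was at 242.6 CPM and the others at 80.7, 71.5 and 91.7 CPM, so that the gap took up 0.882 of the range of the group, above Dixon's critical value for 4 samples. It was the 1 set so marked of 28 groups by member examined, where chance marks about 1 in 20. The same mouse was the highest of its group for 6 of 7 members.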

How the results depend on the processing

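Leaving aside fits without a mouse, 246 of 266 values of the members under alternative settings kept their direction and their side of the threshold, 13 became called, 7 turned direction and 0 lost a call; of 448 values without 1 mouse these numbers were 394, 8, 46 and 0. The 7 that turned under alternative settings were, for females, Cyp51 with upper-quartile scaling (0.0052), Idi1 with the replicate block (-0.00184), and with limma-voom Srebf2 (-0.0067), Cyp51 (0.0809) and Idi1 (-0.14); for the interaction, Fdps with the replicate block (-0.0685) and Cyp51 with limma-voom (0.0351). The cause was not tested.

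Without 1 mouse at a time the log2 fold change in males ran from -0.53 to 0.0528 for Sqle, -0.10 to 0.19 for Cyp51 and -0.40 to 0.0519 for Fdft1. In females it ran from -0.11 to 0.14 for Srebf2, -0.66 to 0.12 for Sqle, -0.77 to 0.0283 for Lss, -0.18 to 0.21 for Cyp51 and -0.19 to 0.17 for Idi1. The interaction ran from -0.0243 to 0.22 for Srebf2, -0.33 to 0.47 for Sqle, -0.0492 to 0.74 for Lss, -0.21 to 0.19 for Cyp51, -0.39 to 0.51 for Fdps, -0.47 to 0.11 for Fdft1 and -1.15 to 0.11 for Mvd. The average over sexes ran from -0.10 to 0.0279 for Srebf2 and -0.0750 to 0.11 for Cyp51.

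The number of all genes called moved with the tool. In males it was 76 by edgeR, 148 by limma-voom, 339 by DESeq2 and 26 to 52 without 1 mouse. In females it was 710 by edgeR, 119 with females fitted alone, 1976 by limma-voom, 1816 by DESeq2 and 87 to 1345 without 1 mouse. For the interaction it was 0 by edgeR, 12 with no filter, 29 by limma-voom, 371 by DESeq2 and 0 to 32 without 1 mouse. For female against male CRE- controls it was 154 by edgeR, 329 by limma-voom, 509 by DESeq2 and 66 to 148 without 1 mouse. Fits of each sex alone cannot give the interaction or the comparisons of the sexes and were not run for them.

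Replicate numbers, as the sample titles give them, are shared between groups. The library numbers in the headers of the deposited counts differ from them for male CRE- replicate 4 and female LKO replicates 3 and 4. The replicate numbers of the titles are the ones used here. The deviations of same-numbered mice correlated at 0.17, 0.17, 0.14 and -0.01 in males and 0.17, 0.10, 0.12 and 0.03 in females. Of these 8 pairs 2 were not above 0.1, not every mouse correlated best with its own number, and no label says what a number stands for, so the numbers were not taken as pairs. The members of replicate 4 were nevertheless above and those of replicate 3 below the group mean on average in all 4 groups. Without a block edgeR called 76 genes in males, 710 in females, 0 for the interaction, 154 in female against male controls, 478 in the average over sexes and 189 in female against male LKO mice. With the replicate block it called 63, 1244, 0, 161, 629 and 514 genes in the same order. It called 1 member in females (Fdps, -0.84, adjusted p = 0.0391), 1 in female against male controls (Cyp51, 0.76, adjusted p = 0.0486), 1 in the average over sexes (Fdps, -0.81, adjusted p = 0.0135) and 5 in female against male LKO mice (Srebf2, Hmgcs1, Sqle, Cyp51 and Idi1).

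With 4 mice a group, the standard errors of 0.19 to 0.41 on the log2 scale limit what could be detected. No member was below 28.3 CPM in any library, and the part of depth in these errors was not tested.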
